A study of Mus musculus with 18 samples.

Results

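The genes described here encode the proteins of the cytosolic ribosome, as far as the array measured each of them alone. Members were the probe sets that the array annotation gives to a single gene whose symbol is Rpl or Rps, digits and at most 1 of the letters a, x or l, together with Rpsa, Rplp0, Rplp1 and Rplp2. Rps25 and the Rps6k kinases were left out, and the probe set with the highest mean over all arrays stood for a gene. This rule found 45 genes, 24 of the large and 21 of the small subunit, on 99 probe sets. Of these, 42 passed a filter on dim probe sets and were among the 14292 genes tested. The 3 below it were Rps16 (mean log2 signal 3.36), Rpl39l (4.16) and Rpl3l (3.93), under the filter level of 5.255, and these were not tested. Rplp1, Rpl5, Rpl3 and Rpl10 have no probe set of their own among the members, and neither do Rps27a and Rpl10l. A further 109 probe sets list a ribosomal protein symbol together with other gene models, often with names of pseudogenes. They are not members, and for 28 symbols they are the only probe sets.

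A ribosome is built from a small subunit, which holds the mRNA and decodes it, and a large subunit, which joins the amino acids. Each protein is needed in about equal number per particle, and cells make the proteins from many separate genes whose mRNAs mostly begin with a pyrimidine stretch, the terminal oligopyrimidine (TOP) tract, through which the mTOR pathway controls their translation. In the developing brain, production of ribosomes is high in dividing progenitors and is known to decline as neurons differentiate.

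The study measured RNA of cortical interneurons that come from the caudal ganglionic eminence (CGE) of the embryonic ventral forebrain. The 6 groups were Htr3a-KO;GAD65-GFP and control GAD65-GFP mice of embryonic days E14.5 and E18.5 and postnatal day P2, ages at which these cells migrate tangentially, enter the cortical plate and settle. Both genotypes carry the GAD65-GFP transgene, which labels GABAergic cells with green fluorescent protein, so that the cells could be sorted. Htr3a encodes a subunit of the serotonin-gated ion channel. Each group had 3 arrays, from 3 litters with at least 4 brains pooled, so that p-values measure the spread between litter pools. Values are log2 signals of a normalised array, and a difference of 1 is a 2-fold change.

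Signals of all 18 arrays were on a common scale, with medians of 6.35 to 6.45 and highest signals of 14.07 to 14.22. Arrays of a group correlated at 0.984 to 0.996, and arrays of different groups at 0.949 to 0.995. The targeted gene Htr3a was lower in Htr3a-KO cells by 0.75 at E14.5 (adjusted p = 0.708), by 3.51 at E18.5 (7.66e-06) and by 1.94 at P2 (0.0109), by limma, so that the test did not bear out the labels at E14.5. At that age it had 7.41, 7.29 and 7.19 in Htr3a-KO cells, against 8.49, 7.99 and 7.65 in control cells, without overlap. Markers of the labelled cells were present, with Gad1 at 10.88 to 12.34 and Gad2 at 8.44 to 11.57 over the arrays. Among markers of the CGE class, Prox1 lay between 4.74 and 7.42, and Nr2f2 between 8.72 and 10.29. Markers of excitatory neurons were present as well, with Neurod6 at 8.91 to 12.38. In such bulk RNA, fewer cells of a type and less RNA per cell cannot be told apart.

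Promoters of 39 of the 45 members were found in the RefSeq tables of mouse assembly GRCm38.p6, each covering 250 bases before to 50 bases after a start that the table uses. The stretch from 40 bases before to 20 bases after the start is shown for 6 members that the results turn on or that stand beside a close relative. Capitals mark CTTTC on the sense strand, or the same with 1 or 2 more T, pyrimidine stretches like that of a TOP tract, or else CCGGAAG, the core read by ETS-family factors. The first of the last 20 bases is that start, which is the start of the gene in the same tables for all but Rps27l, where it lies inside the gene.
Rpl12, chr2:32961672-32961731, plus strand: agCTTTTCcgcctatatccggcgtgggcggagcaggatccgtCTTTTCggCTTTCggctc
Rps6, chr4:86857348-86857407, minus strand: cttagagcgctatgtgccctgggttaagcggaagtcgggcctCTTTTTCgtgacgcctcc
Rps27, chr3:90213629-90213688, minus strand: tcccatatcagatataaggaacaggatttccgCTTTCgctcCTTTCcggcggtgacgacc
Rps27l, chr9:66946046-66946105, plus strand: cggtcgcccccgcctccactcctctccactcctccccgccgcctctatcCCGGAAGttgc
Rpl6, chr5:121204461-121204520, plus strand: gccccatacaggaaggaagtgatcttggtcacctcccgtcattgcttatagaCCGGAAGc
Rps4x, chrX:102189372-102189431, minus strand: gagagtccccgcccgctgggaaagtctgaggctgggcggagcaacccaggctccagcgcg
Rpl12, Rps6 and Rps27 hold a pyrimidine stretch at or just after the start, Rps27l and Rpl6 hold CCGGAAG there, and Rps4x holds neither in these 60 bases. Within 30 bases of the start, such a stretch occurred on the sense strand in 34.0% of the 47 member promoters and in 10.09% of all 32851 promoters in the table. CCGGAAG, searched on both strands of the whole window, occurred in 40.4% of member promoters and in 8.86% of all. AAGATGGC, the core read by YY1, on either strand was found in 6.4% and 2.75%. TATAAA on the sense strand between 40 and 15 bases before the start was found in 0 member promoters and in 1.99% of all. A match is a description of the letters and not a measured site.

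The members varied little between arrays. The median SD within groups was 0.125 for the 42 members and 0.182 for all genes tested, and the median range over the 18 arrays was 0.505 and 0.94. A range over 1 was seen in 5 of the 42 members (11.9%) and in 45% of all genes. The steadiest were Rps7, a small-subunit protein, which ranged over 0.17, and Rps4x, which ranged over 0.19. Of the 42 members, 31 had a mean signal above 12, near the upper end of the arrays' scale, and 14 of the 45 stood on probe sets whose name ends in _x_at, the manufacturer's mark for probes shared with other transcripts. Whether signals at that end are compressed was not tested. Signals of different probe sets are not set against each other here.

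Within groups, the members moved up and down together from array to array. Over the 18 arrays, after each group's mean was taken away, the median correlation between 2 members was 0.594 over 861 pairs, and 0.0247 over all pairs of genes tested. A correlation over 0.5 was reached by 61.1% of member pairs and by 9.16% of all pairs. These points share the arrays and the RNA pools, and probe sets of related sequence can share transcripts. Rps15 (median 0.77 with the other members), Rps9 (0.76) and Rps27l (0.76) followed the rest most closely. Rpl12 (-0.09), Rpl27a (0.06) and Rps4x (0.10) did so least.

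Single arrays therefore stood above or below the others for most members at once. On the third Htr3a-KO array at E14.5, 39 of 42 members lay above their own mean, by a median of 0.19. The second control array at P2 (37 of 42, median 0.15) and the third Htr3a-KO array at E18.5 (37 of 42, 0.11) were high as well. The first Htr3a-KO array at E18.5 (4 of 42 above, median -0.15) and the first control array at E18.5 (5 of 42, -0.12) were low. So were the third control array at P2 (8 of 42, -0.11) and the third Htr3a-KO array at P2 (8 of 42, -0.09). Over all genes tested, the median deviation of an array was -0.07 to 0.06. High arrays thus occurred in both genotypes. The difference between 3′ and 5′ control probe sets of Gapdh, a sign of RNA length, was 1.98, 1.77 and 2.12 on the high arrays. On the low ones, in the order named, it was 1.79, 1.74, 2.20 and 1.87, against 1.55 to 2.20 over all arrays. The 28 cell cycle genes of a marker list had their group's highest mean level on each of the 3 high arrays. Among them were 9.96 on the third Htr3a-KO array at E18.5 and 9.57 on the second control array at P2. On the low arrays, in the same order, the list had 9.31, 8.75, 9.21 and 9.24. Only the second of these was the lowest of its group. The 15 neural progenitor markers had 9.93, 10.82 and 10.29 on the high arrays, again each the highest of its group. They had 9.94, 8.99, 10.65 and 10.92 on the low ones, where again only the second was the lowest of its group. The part of RNA length and of these markers in the shifts was not tested.

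**Figure D1:**
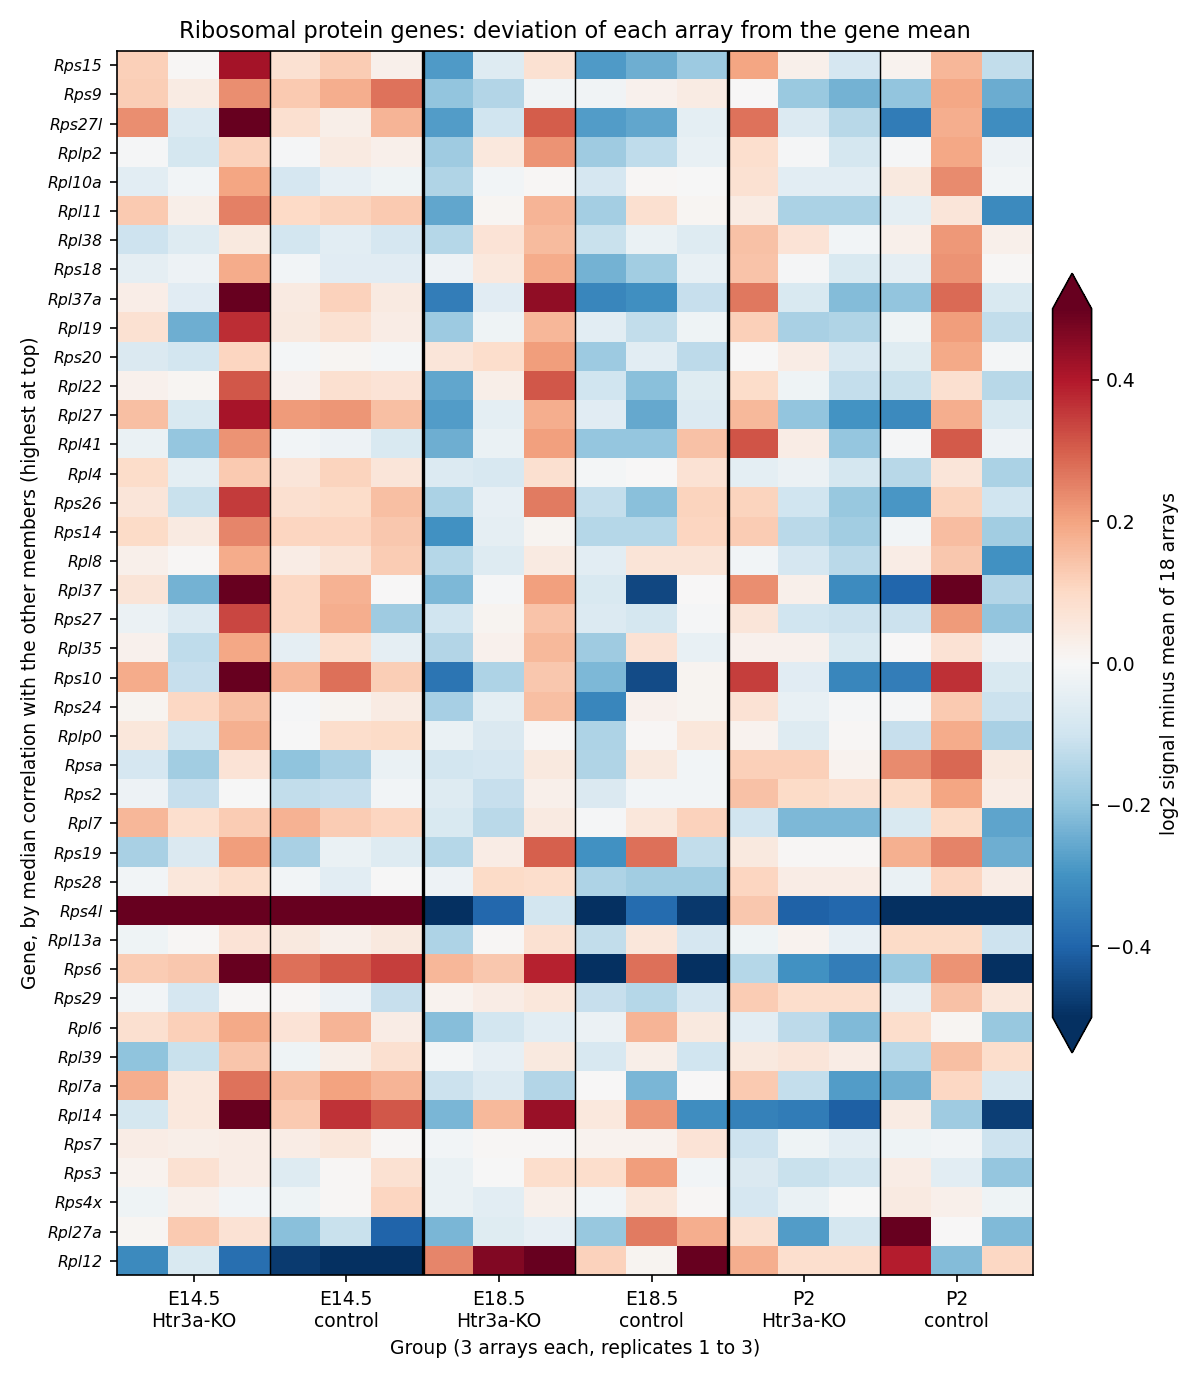
Deviation of each array from the gene's mean over 18 arrays (colour, log2 units, limited at 0.5) for the 42 members, ordered by their median correlation with the other members; columns are 3 arrays for each of the 6 groups, with Htr3a-KO left of control at each age. Whole columns are red or blue, such as the third Htr3a-KO array at E14.5 (39 of 42 above their mean), whereas Rps4l and Rpl12 change between ages.

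Loss of Htr3a was compared with control at each age. No member passed at E14.5, E18.5 or P2, nor in the mean of the 3 ages, by limma with Benjamini-Hochberg adjustment over all genes. The background was small too, since 0.014%, 0.021% and 0.035% of all genes passed at the 3 ages and 0.294% in the mean. At an unadjusted p under 0.05 there were 1, 4 and 0 members at the 3 ages and 1 in the mean, of 42, beside 5.86%, 12.9%, 7.58% and 11.2% of all genes. The median difference of the members was 0.02 at E14.5, 0.06 at E18.5 and -0.02 at P2, and that of all genes was 0.01, -0.06 and -0.04. These medians changed sign when 1 array was left out, to -0.05 at E14.5 and -0.02 at E18.5 without the third Htr3a-KO array of that age, and to 0.06 and 0.01 at P2 without the second control or the third Htr3a-KO array. Without the first Htr3a-KO array at E18.5 the median was 0.14, and without the first control array it was 0.00. Of the members, 25, 26 and 14 were above 0 (all genes 53%, 37.9% and 39.6%). Groups did not overlap for 2, 6 and 1 members, beside 9.01%, 20.7% and 9.14% of all genes.

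These small differences are bounded by their intervals. The 95% confidence interval of the difference lay within 1.5-fold in either direction for 39 (E14.5), 38 (E18.5) and 40 (P2) of 42 members, and for 42 in the mean of the ages. The shares of all genes with such an interval were 74%, 70.1%, 71.2% and 93.2%. Of the 42 members, 8 were above 0 at all 3 ages and 5 were below 0 at all 3. The 3 age differences rest on separate arrays.

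At E18.5 the 3 higher members with the smallest p were of the small subunit. Rps28, a small protein near the mRNA exit of the small subunit, had 13.57, 13.69 and 13.68 in Htr3a-KO cells, against 13.44, 13.42 and 13.42 in control cells. The groups did not overlap and the difference was 0.22 ± 0.07 (SE, n = 3 each), with an adjusted p of 0.270 by limma. Rps20, which lies at the head of that subunit, had 13.26, 13.29 and 13.41 in Htr3a-KO cells, against 13.02, 13.15 and 13.07 in control cells (difference 0.24, adjusted p = 0.310). Rps6, the substrate of the S6 kinases downstream of mTOR, had 9.34, 9.31 and 9.56 in Htr3a-KO cells, against 8.56, 9.45 and 8.60 in control cells. Its groups overlapped through the second control array, and the difference of 0.53 ± 0.24 did not pass (adjusted p = 0.370). The 8 joint probe sets that list Rps6 with other gene models gave differences of -0.23 to 0.06 at this age, none of which passed. The larger value of the Rps6 probe set is thus not shared by them.

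Rps18 (0.22) and Rps29 (0.15) completed the members that were higher without overlap at E18.5, 4 in all beside 5.56% of all genes, and Rpl6 (-0.18, adjusted p = 0.446) and Rps7 (-0.03) were lower without overlap, beside 15.2%. By p, the next lower values were those of Rps9 (-0.14) and Rpl7 (-0.11). At E18.5 the Gapdh 3′ to 5′ difference was 1.95 ± 0.17 in Htr3a-KO cells and 1.74 ± 0.10 in control cells (SD, n = 3 each). Several marker lists did not overlap between the genotypes at this age. The 8 astrocyte markers had a mean level of 7.96 to 8.18 over the Htr3a-KO arrays and 6.83 to 7.82 over the control arrays, the 15 neural progenitor markers 9.94 to 10.29 and 8.99 to 9.75, and the 8 oligodendrocyte markers 9.42 to 9.69 and 8.55 to 9.34, with 0 markers past the threshold in each. The 13 CGE markers had 8.75 to 8.99 and 9.0 to 9.39, with 1 past the threshold, Htr3a itself. That targeted gene is part of the list and was lower by 3.51 at this age. The separation of the CGE list therefore cannot be read as a difference of its other markers. The part of RNA length or of these markers in the differences above was not tested. With array weights, a fit in which arrays that deviate count less, 3 members passed at E18.5, namely Rps28 (adjusted p = 0.0342), Rps20 (0.0451) and Rps6 (0.0329), when 876 genes passed in all.

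At E14.5 the smallest p belonged to Rpl12, a protein of the stalk base where elongation factors bind, with 8.76, 9.0 and 8.70 in Htr3a-KO cells, against 8.60, 8.42 and 8.28 in control cells. The difference of 0.39 did not pass (adjusted p = 0.831). Rpl27a (0.31, adjusted p = 0.961) and Rpl10a (0.09) followed, and the lower values were those of Rps4l (-0.26), Rpl39 (-0.09) and Rps9 (-0.06). At P2, Rps4l had 7.86, 7.32 and 7.33 in Htr3a-KO cells, against 7.06, 7.06 and 6.97 in control cells, without overlap but also without passing (difference 0.47, adjusted p = 0.657). Rps27l (0.18) and Rps29 (0.05) came next among higher values, and Rpl27a (-0.39, adjusted p = 0.711), Rpsa (-0.11) and Rpl6 (-0.10) among lower ones. At E14.5 the mean levels of the endothelial and mural list (6.56 to 7.78 in Htr3a-KO and 5.71 to 6.47 in control arrays) and of the meningeal list (7.44 to 7.56 and 6.87 to 7.16) did not overlap. Nor did those of the excitatory neuron list at P2 (7.39 to 8.39 and 8.45 to 8.65) and of the striatal projection neuron list (7.53 to 7.62 and 7.79 to 7.88). No marker of these lists passed at that age, and their part was not tested. The Rpl27a value at P2 follows 1 array, since Htr3a-KO cells had 8.33, 7.97 and 8.16 and control cells 9.34, 8.25 and 8.03.

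In the mean over the 3 ages the smallest p were those of Rps28 (0.10, adjusted p = 0.397), Rpl12 (0.18), Rps29 (0.07), Rpl6 (-0.08), Rpl7 (-0.07) and Rps9 (-0.09). Rplp0 and Rplp2, the acidic proteins of the stalk that recruits elongation factors, differed by 0.00 and 0.03 in this mean, with intervals of -0.13 to 0.13 and -0.10 to 0.15. Rpl11, which under ribosome stress can bind the p53 inhibitor Mdm2, differed by 0.01 (-0.14 to 0.16). Rpsa, a small-subunit protein also known as a laminin receptor precursor, differed by -0.01 (-0.13 to 0.11). Rps27 and Rpl39, the ubiquitous relatives of Rps27l and Rpl39l, differed by 0.03 and -0.01.

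Htr3a lies on chromosome 9 from 48899213 to 48911152 in GRCm38.p6, and 4 members lie on that chromosome. Members within 20 Mb of it were looked at singly. Rps27l, a paralog of Rps27 known as a p53 target, starts 18 Mb away (66944624 to 66949522). It differed by 0.17, 0.17 and 0.18 at E14.5, E18.5 and P2 and by 0.17 ± 0.11 in their mean, which did not pass (adjusted p = 0.569). Without the third Htr3a-KO array, a high one, it differed by -0.01 at E14.5 and by 0.01 at E18.5, and without the second control array at P2 by 0.35 (adjusted p = 0.683). Its arrays read 10.77, 10.47 and 11.17 in Htr3a-KO cells and 10.62, 10.57 and 10.71 in control cells at E14.5, so the groups overlapped. Rpl4, a large-subunit protein that lines the exit tunnel, lies 15.3 Mb away (64173387 to 64178562) and differed by -0.02, -0.04 and 0.02. Rpsa and Rpl14 lie 71.2 and 71.7 Mb away.

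**Figure D2:**
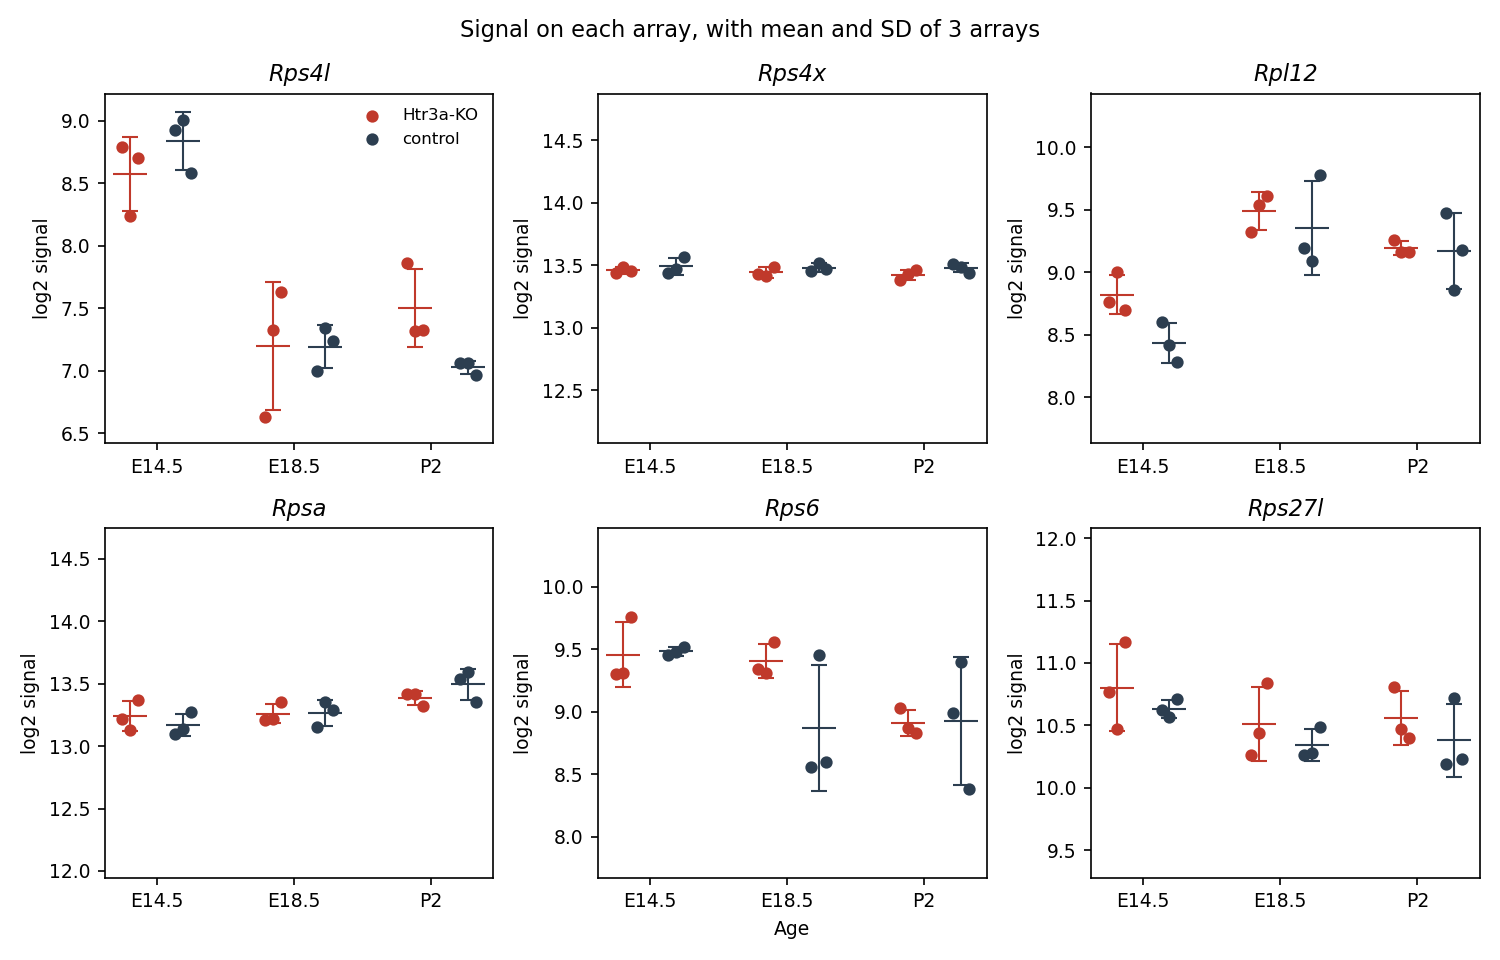
Log2 signal on each array (points), with mean and SD of 3 arrays (bars), for 6 members at E14.5, E18.5 and P2, Htr3a-KO in red left of control in dark blue; every panel spans the same 2.8 log2 units. Rps4l is lower and Rpl12 mostly higher after E14.5 in both genotypes, while Rps4x stays within 0.19 over all 18 arrays.

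The Htr3a-KO effect was then compared between ages. In the F test over ages, 0 members and 0 genes in all passed by limma, and at an unadjusted p under 0.05 there were 0 members and 7.23% of all genes. The differences between Htr3a-KO and control in the step between ages also passed for 0 members, with 0.007% of genes for the step of E14.5 to E18.5 and 0% for the steps of E18.5 to P2 and E14.5 to P2. Rps20 had the smallest p in the first of these (0.25, adjusted p = 0.688) and in the second (-0.29, adjusted p = 0.686). Rps6 differed by 0.56 and -0.55 in them. For the whole span, Rps4l (0.74, interval 0.06 to 1.41, adjusted p = 0.773) and Rpl27a (-0.70, adjusted p = 0.803) had the smallest p.

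Age changed few members, at a time when many other genes changed. Between E14.5 and P2, 4 of 42 members were lower in Htr3a-KO cells and 0 higher, while 41.5% of all genes passed (26% lower and 15.6% higher). In control cells 1 was lower and 2 were higher, while 39.2% of all genes passed (21.2% lower and 18% higher). The members' median difference was -0.13 in Htr3a-KO cells and -0.07 in control cells, and that of all genes was -0.07 and -0.04. The 95% interval lay within 1.5-fold for 32 of 42 members in Htr3a-KO cells (42% of all genes) and for 33 of 42 in control cells (44.1%). Without the third Htr3a-KO array at E14.5, the high one, the members' median in Htr3a-KO cells was -0.02, and 2 members passed in place of 4.

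**Figure D3:**
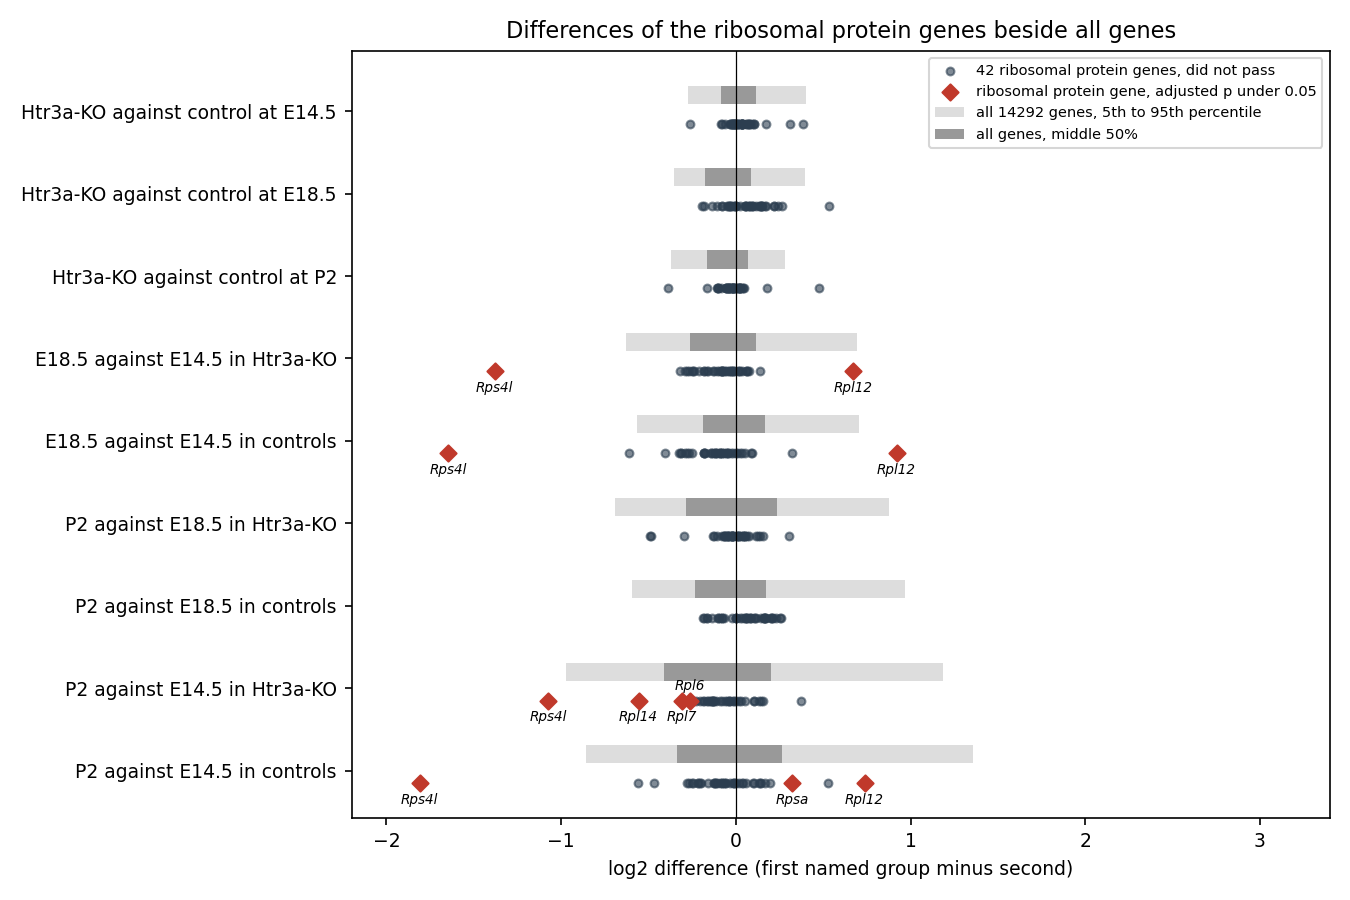
Log2 differences of the 42 members (points; red diamonds passed the adjusted p) in 9 comparisons, above them the 5th to 95th percentile (light bar) and middle 50% (dark bar) of all 14292 genes; each difference is the group named first minus the second. No diamond stands in the 3 genotype comparisons, and between 0 and 4 members passed in each age comparison.

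The largest age change was that of Rps4l, a gene named for its likeness to Rps4x, which RefSeq lists as a transcribed pseudogene on chromosome 6 from 148354656 to 148355596 in GRCm38.p6. In Htr3a-KO cells its E14.5 arrays read 8.79, 8.24 and 8.70, its E18.5 arrays 6.63, 7.33 and 7.63, and its P2 arrays 7.86, 7.32 and 7.33. In control cells the E14.5 arrays read 8.93, 9.01 and 8.58, the E18.5 arrays 7.0, 7.34 and 7.24, and the P2 arrays 7.06, 7.06 and 6.97. In both genotypes all arrays at E18.5 and P2 lay below all at E14.5. At E18.5 against E14.5 it fell by 1.38 ± 0.22 in Htr3a-KO cells (2.60-fold, adjusted p = 0.00113 by limma) and by 1.65 ± 0.22 in control cells (3.13-fold, 3.13e-04; SE, n = 3 each). At P2 against E14.5 it fell by 1.07 in Htr3a-KO cells (2.10-fold, 0.00128) and by 1.81 in control cells (3.51-fold, 1.87e-05). Both comparisons share the E14.5 arrays. Rps4x, the X-linked gene for the small-subunit protein itself, differed by -0.04 in Htr3a-KO cells and -0.01 in control cells at P2 against E14.5, with intervals of -0.19 to 0.12 and -0.17 to 0.14.

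Rpl12 rose. In Htr3a-KO cells its E14.5 arrays read 8.76, 9.0 and 8.70, its E18.5 arrays 9.32, 9.54 and 9.61, and its P2 arrays 9.26, 9.16 and 9.16. In control cells the E14.5 arrays read 8.60, 8.42 and 8.28, the E18.5 arrays 9.19, 9.09 and 9.78, and the P2 arrays 9.47, 8.86 and 9.18. At E18.5 against E14.5 it rose by 0.67 ± 0.18 in Htr3a-KO cells (1.59-fold, adjusted p = 0.0198) and by 0.92 ± 0.18 in control cells (1.89-fold, 0.00365). At P2 against E14.5 the difference was 0.37 in Htr3a-KO cells, which did not pass (adjusted p = 0.102), and 0.74 in control cells, which did (0.00378). In Htr3a-KO cells the E18.5 call was lost without the first or the third array at E14.5 (adjusted p = 0.0639 and 0.0634) or the second or the third at E18.5 (0.0725 and 0.0559).

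The rise of Rpl12 rests on 1 probe set. The 2 joint probe sets that list Rpl12 with other gene models differed at E18.5 against E14.5 by -0.11 and -0.03 in Htr3a-KO cells and by 0.01 and 0.03 in control cells, and none of these passed. At P2 against E14.5 they differed by 0.07 and 0.06 in Htr3a-KO cells and by 0.25 and 0.27 in control cells, the last with an adjusted p of 0.0453. The member's probe set also had the lowest median correlation with the other members. Which transcripts it reads was not tested.

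Rpsa rose in control cells at P2, with 13.54, 13.59 and 13.35 against 13.10, 13.14 and 13.27 at E14.5 (0.32 ± 0.10, 1.25-fold, adjusted p = 0.0147 by limma). In Htr3a-KO cells it had 13.42, 13.42 and 13.32 at P2 and 13.22, 13.13 and 13.37 at E14.5, and the difference of 0.15 did not pass (adjusted p = 0.244). The step did not differ between genotypes past the threshold (-0.18, interval -0.47 to 0.11, adjusted p = 0.872). The call in control cells was lost without the first control array at E14.5 (adjusted p = 0.0585), without the second control array at P2, a high one (0.0611), and with only the arrays compared in the fit (0.0664).

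In Htr3a-KO cells, 3 large-subunit genes besides Rps4l were lower at P2 than at E14.5. Rpl7 had 13.11, 12.98 and 12.98 at P2 and 13.37, 13.29 and 13.33 at E14.5, a fall of 0.31 ± 0.09 (1.24-fold, adjusted p = 0.0159). Rpl6 had 12.89, 12.81 and 12.72 at P2 and 13.02, 13.06 and 13.13 at E14.5, a fall of 0.26 ± 0.09 (1.20-fold, 0.0341). Rpl14 had 7.86, 7.85 and 7.79 at P2 and 8.11, 8.25 and 8.81 at E14.5, a fall of 0.56 ± 0.20 (1.47-fold, 0.0332). For all 3 the groups did not overlap. Without the third array at E14.5, Rpl14 differed by -0.35 (adjusted p = 0.172) and Rpl6 by -0.23 (0.0998). Rpl6 was also at 0.0670 without the second array at E14.5, and at 0.0723 and 0.119 without the second or the third at P2. Rpl14 was at 0.0608, 0.0678 and 0.0814 without each of the 3 arrays at P2 in turn. With only the arrays compared in the fit, none of the 3 passed (adjusted p = 0.0542 for Rpl7, 0.0934 for Rpl6 and 0.0529 for Rpl14), and with quantile normalization Rpl6 (0.0592) and Rpl14 (0.0519) did not. Rpl7 was at 0.0513 without the first array at E14.5, and at 0.0531 and 0.0513 without the second or the third at P2. Leaving out the second or the third array at P2 thus left 1 called member of the 4.

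In control cells, the same comparison gave -0.22 for Rpl7 (adjusted p = 0.0799), -0.12 for Rpl6 (0.323) and -0.47 for Rpl14 (0.0709), and Rps9 was at -0.28 (0.0605). Rps6 was lower by values that did not pass in either genotype, with -0.55 in Htr3a-KO cells (adjusted p = 0.0800) and -0.56 in control cells (0.0761). Its 3 control arrays at P2, 8.99, 9.40 and 8.38, lay below the 9.45, 9.48 and 9.52 at E14.5. Without the second control array at P2, a high one, Rps6 (-0.80, adjusted p = 0.0176 by limma) and Rps9 (-0.42, 0.00562) passed in control cells. Rps6 also passed there without the second control array at E18.5 (0.0332). In Htr3a-KO cells Rps6 passed with only the arrays compared in the fit (0.0300) and with array weights (0.0330). The 8 joint probe sets that list Rps6 differed by -0.37 to -0.08 in Htr3a-KO cells, where 1 passed (adjusted p = 0.0192 by limma). In control cells they differed by -0.16 to 0.05, and 0 passed. The other members with the smallest p were Rps2 (0.15 in Htr3a-KO and 0.19 in control cells), Rps29 (0.13 in Htr3a-KO cells) and Rps9 (-0.27 in Htr3a-KO cells).

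The separate steps showed less. At E18.5 against E14.5, 2 of 42 members passed in each genotype, Rps4l and Rpl12, beside 15.1% of all genes in Htr3a-KO cells and 11% in control cells. In Htr3a-KO cells 10 of 42 members were above 0 (36.4% of all genes), and the next smallest p were those of Rpl6 (-0.25, adjusted p = 0.0855), Rpl7a (-0.28, 0.112), Rps20 (0.14) and Rps29 (0.07). In control cells 8 of 42 were above 0 (48.5% of all genes), and 14 members (33.3%) were lower without overlap, beside 16.5% of all genes. Their sizes were small, such as -0.31 for Rps15 (adjusted p = 0.116), and the median was -0.10. Without the second control array at E18.5, Rps6 passed in control cells (-0.90, adjusted p = 0.0181 by limma). In Htr3a-KO cells 8 members (19%) were lower without overlap, beside 24.5% of all genes, and the median was -0.08.

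At P2 against E18.5, 0 members passed in either genotype, while 28.5% of all genes passed in Htr3a-KO cells and 19.7% in control cells. At an unadjusted p under 0.05 there was 1 member in Htr3a-KO cells, and there were 3 in control cells, beside 40.9% and 33% of all genes. The smallest p in Htr3a-KO cells were those of Rpl14 (-0.49, adjusted p = 0.0759), Rps6 (-0.49, 0.134), Rpl12 (-0.30) and Rps2 (0.16). In control cells they were those of Rps28 (0.20, adjusted p = 0.0655), Rpsa (0.23, 0.108), Rps29 (0.17), Rps3 (-0.16), Rpl7 (-0.14) and Rpl4 (-0.10). With a trended prior variance Rps28 (adjusted p = 0.0113) and Rps29 (0.0379) passed in control cells.

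A gene's other probe sets did not always follow the one chosen. Of the 21 members with at least 2 probe sets above the filter, 6 to 14 had probe sets that differed in sign, depending on the comparison, most of them near 0. At P2 against E14.5, 7 further probe sets of 5 members passed in Htr3a-KO cells and 5 of 3 members in control cells, all lower. Rpl13a is the clearest case. Its chosen probe set differed by -0.03 in Htr3a-KO cells and -0.01 in control cells. Another of its probe sets fell by 0.85 in Htr3a-KO cells and by 0.82 in control cells (adjusted p = 2.00e-04 and 2.89e-04), and a further one fell by 0.59 and 0.58. At P2 against E18.5 in Htr3a-KO cells these fell by 0.66 and 0.41 while the chosen one differed by 0.01.

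Rpl7 fell on 2 further probe sets in both genotypes at P2 against E14.5, by 0.51 and 0.35 in Htr3a-KO cells and by 0.46 and 0.32 in control cells. Rps9 had a probe set that fell by 0.68 in Htr3a-KO cells and by 0.63 in control cells, whereas its chosen one differed by -0.27 and -0.28. Rps3 (-0.59) and Rpl27 (-0.50) each had 1 more that passed in Htr3a-KO cells. At P2 against E18.5 in control cells, another probe set of Rpl22 fell by 0.58 while the chosen one differed by 0.07. In the same comparison another probe set of Rps3 (-0.48, adjusted p = 0.0405 by limma) and of Rps9 (-0.62, 0.0251) passed. Their chosen ones differed by -0.16 and -0.10. That probe set of Rps9 also fell by 0.75 in Htr3a-KO cells (0.00760), where the chosen one differed by -0.02. Rpl41, the shortest of the ribosomal proteins, had 2 probe sets that rose at E18.5 against E14.5 in Htr3a-KO cells, by 1.20 and 0.96, while its chosen one differed by -0.02. The first of these then fell by 0.68 at P2 against E18.5 (adjusted p = 0.0475 by limma). In control cells no probe set of Rpl41 passed at E18.5 against E14.5. The difference of that step between genotypes passed for 0 of the 91 member probe sets. Which transcript forms such probe sets read was not tested.

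The joint probe sets gave a like picture as a group. Of 102 above the filter, 1 was higher and 6 were lower at P2 against E14.5 in Htr3a-KO cells (6.86%, beside 37% of all probe sets), and 4 were higher and 5 lower in control cells (8.82%, beside 35.6%). Their medians were -0.07 in Htr3a-KO cells and -0.01 in control cells. None passed between the genotypes at any age. The joint probe set of Rplp1, the third acidic stalk protein, listed together with the gene model Gm13777, rose by 0.33 in Htr3a-KO cells (adjusted p = 0.0153) and by 0.36 in control cells (0.00861).

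Members of both subunits had like medians. At P2 against E14.5, the median difference in Htr3a-KO cells was -0.13 over 22 large-subunit members and -0.11 over 20 small-subunit members. In control cells it was -0.08 and -0.06. In Htr3a-KO cells 3 large-subunit members and 1 small-subunit member passed, all lower. In control cells 1 large-subunit member passed as higher, and 1 small-subunit member passed in each direction. The small-subunit member that was lower in both was Rps4l, counted there by its symbol although RefSeq lists it as a transcribed pseudogene, and what its probe set reads was not tested. No test between subunits was run.

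Other genes of ribosome production were counted from lists that do not include the genes above, against the same shares of all genes that passed. Of 49 tested genes for ribosome assembly and rRNA synthesis, 36 were lower and 0 higher at P2 against E14.5 in Htr3a-KO cells, with a median of -0.51, and 21 were lower and 1 higher in control cells, with a median of -0.32. Rrp1b, a nucleolar assembly factor, fell by 1.02 in Htr3a-KO cells (adjusted p = 2.77e-05). Gar1, which with its partners guides pseudouridine formation in rRNA, fell by 0.68, and Bysl, a factor of small-subunit assembly, fell by 0.96. In control cells the smallest p were those of Nob1, the nuclease that matures the small-subunit rRNA (-0.54, adjusted p = 1.74e-04), Taf1b, a part of the RNA polymerase I machinery (-1.01), and Ltv1, a small-subunit assembly factor (-1.03). The difference between genotypes in this span passed for 0 genes in all.

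Mitochondrial ribosomal proteins, which serve the separate ribosome of that organelle, were often lower as well. Of 76 tested, 36 were lower and 1 higher in Htr3a-KO cells at P2 against E14.5 (median -0.35), and 32 were lower and 2 higher in control cells (-0.31). Mrps35 fell by 0.81 in Htr3a-KO cells (adjusted p = 2.41e-04) and by 0.71 in control cells (7.83e-04). Mrps30 fell by 0.80 in control cells. Translation factors and other mRNAs of the TOP class gave 10 lower of 24 in Htr3a-KO cells and 8 in control cells, with 0 higher in either. Among them Eif3h, a subunit of the initiation factor that binds the small subunit, fell by 0.39 in Htr3a-KO cells (adjusted p = 0.00416) and by 0.35 in control cells (0.00998). Snhg1, a host gene of small nucleolar RNAs, fell by 0.45 and 0.39.

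Of 20 regulators of ribosome production, 7 were lower and 1 higher in Htr3a-KO cells at P2 against E14.5, and 5 were lower in control cells. That is 35% lower and 5% higher in Htr3a-KO cells (26% and 15.6% of all genes) and 25% lower in control cells (21.2% of all genes). Mycn, a transcription factor that drives ribosome genes in progenitors, fell by 1.5 in Htr3a-KO cells (2.82-fold, adjusted p = 4.53e-06) and by 0.90 in control cells (1.87-fold, 4.44e-04). Maf1, a repressor of RNA polymerase III, fell by 0.65 and 0.54, and Sesn1, an inhibitor of mTOR signalling, fell by 0.91 and 0.59. Of 16 genes of the p53 pathway, 3 were higher and 2 lower in Htr3a-KO cells, and 5 were higher and 3 lower in control cells. That is 18.8% higher and 12.5% lower in Htr3a-KO cells (15.6% and 26% of all genes) and 31.2% and 18.8% in control cells (18% and 21.2% of all genes). Mdm2 fell by 0.88 in Htr3a-KO cells and by 0.56 in control cells, Trp53inp1 fell by 1.29 and 1.34, and Ccng1 rose by 0.44 and 0.64. Between the genotypes, 0 of the 185 entries of these 5 lists passed at any age or in the mean of the ages, by limma, and 6, 20, 17 and 18 had an unadjusted p under 0.05. These are 3.24%, 10.8%, 9.19% and 9.73% of the entries, beside 5.86%, 12.9%, 7.58% and 11.2% of all genes. Mean levels of some of these lists did not overlap between genotypes, all lower in Htr3a-KO arrays. At E18.5 ribosome assembly had 9.50 to 9.58 in Htr3a-KO and 9.59 to 9.73 in control arrays. The p53 pathway had 8.43 to 8.47 and 8.49 to 8.62 at that age. Translation factors had 12.13 to 12.15 and 12.17 to 12.18 at E14.5. At E18.5 they had 12.09 to 12.11 and 12.13 to 12.24. The median difference of all genes at E18.5 was -0.06, and the cause was not tested.

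**Figure D4:**
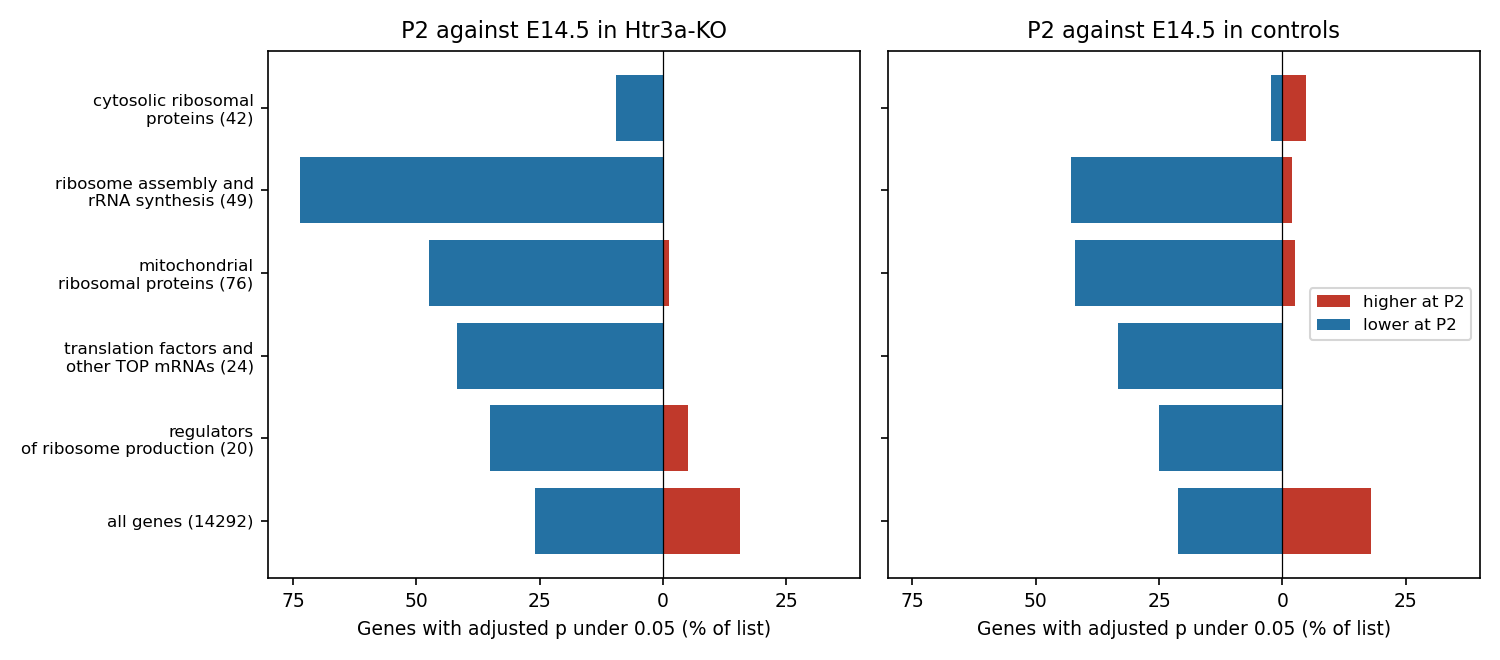
Share of each list (%, to the right higher and to the left lower at P2) with an adjusted p under 0.05 at P2 against E14.5, in Htr3a-KO cells (left) and control cells (right); numbers in brackets are genes tested. The bar of the cytosolic ribosomal proteins stands for 4 lower genes in Htr3a-KO cells and for 1 lower and 2 higher in control cells, and that of ribosome assembly for 36 and 21 lower genes.

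Of the ribosomal protein genes whose symbols the rule leaves out, 4 were tested. Rps3a1 and Fau, both proteins of the small subunit, differed by -0.11 and -0.16 in Htr3a-KO cells and by -0.06 and -0.02 in control cells at P2 against E14.5, and none of these passed. Rpl7l1, a relative of Rpl7, fell by 0.64 in Htr3a-KO cells (adjusted p = 0.00402) and by 0.47 in control cells (0.0268). Rpl22l1, the paralog of Rpl22, rose by 0.31 in control cells (0.0326) and differed by 0.22 in Htr3a-KO cells (0.123).

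The sorted cells also changed in their markers over the same ages. Of 8 astrocyte markers, 7 rose at P2 against E14.5 in each genotype, and the mean level of the list was 10.51 to 11.19 in Htr3a-KO and 10.13 to 10.88 in control arrays at P2, against 7.41 to 7.68 and 6.82 to 7.55 at E14.5. Of 8 oligodendrocyte markers, 7 rose in each genotype and 1 fell in Htr3a-KO cells. Of 11 excitatory neuron markers, 10 fell in each, to mean levels of 7.39 to 8.39 in Htr3a-KO and 8.45 to 8.65 in control arrays at P2, against 10.40 to 10.78 and 10.25 to 10.85 at E14.5. Of 28 cell cycle genes, 0 passed in either genotype by limma, and 1 in Htr3a-KO and 5 in control cells had an unadjusted p under 0.05. Of 15 neural progenitor markers, 9 rose and 1 fell in Htr3a-KO cells and 7 rose and 1 fell in control cells, to mean levels of 10.58 to 11.08 in Htr3a-KO and 10.25 to 10.82 in control arrays at P2, against 9.30 to 9.93 and 9.13 to 9.79 at E14.5. Of 10 striatal projection neuron markers, 5 fell in each genotype (mean levels at P2 of 7.53 to 7.62 in Htr3a-KO and 7.79 to 7.88 in control arrays, against 8.16 to 9.25 and 8.54 to 10.83 at E14.5). Of 9 endothelial and mural markers, 2 rose in Htr3a-KO and 5 in control cells (7.52 to 9.13 and 7.70 to 8.65 at P2, against 6.56 to 7.78 and 5.71 to 6.47 at E14.5). Of 8 markers of GABAergic interneurons, 4 fell in each genotype (8.40 to 9.08 in Htr3a-KO and 9.01 to 9.37 in control arrays at P2, against 9.66 to 9.88 and 9.02 to 10.79 at E14.5). Markers of the CGE class, 13 in all, gave 3 higher and 0 lower in Htr3a-KO cells. In control cells 6 were higher, among them Htr3a itself, and 2 lower. Their mean level was 8.70 to 9.24 in Htr3a-KO and 8.93 to 9.18 in control arrays at P2. At E14.5 it was 8.33 to 8.70 and 8.11 to 8.56. The erythroid list of 4 had 2 lower in Htr3a-KO and 1 in control cells, and the meningeal list of 6 had 2 and 3 higher. Of 12 microglia markers, 1 fell in Htr3a-KO cells and 7 rose in control cells, and their mean level reached 9.01 on the first Htr3a-KO array at E14.5 and 9.72 on the first control array at P2. The part of the changing cell markers in the age results was not tested.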

How the data were processed

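RNA of sorted cells was hybridised to Affymetrix whole-genome mouse arrays, and the authors deposited log2 values normalised by RMA in Partek Genomic Suite 6.6, per the labels and the submitters' processing notes. These log2 values were used as deposited. Of 45101 probe sets, 34945 are given to 1 gene, 932 to several and 9160 to none, and 64 are controls. The dimmest 30% of probe sets by mean (below 5.255) were left out, and each of 14292 genes was represented by its brightest probe set. Means of the 6 groups were fitted in limma 3.58.1 (R 4.3.3), with 12 residual degrees of freedom and Benjamini-Hochberg adjustment over all genes at 0.05. The fit was tested on simulated data. Figures and promoter searches used Python 3.11.15.

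The members and lists were chosen with earlier results of these data known. Named are all members past the threshold (otherwise the 3 smallest p in each direction), a fixed set of stalk, stress and paralog genes, members within 20 Mb of Htr3a, and up to 3 genes of a list by smallest p. Members whose probe sets differ in sign are named where such a probe set passed. Alternatives were other filters, normalisations, variance priors and array weights, a replicate block, and each array left out.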

Additional observations from a re-analysis of the deposited data

How the results depend on the processing

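No result changed sign past the threshold under any alternative, and Rps4l passed in every one of them at E18.5 and at P2 against E14.5 in both genotypes. Among reruns of 193 results of 26 named genes under the alternatives, 23 lost a call and 42 gained one. A further 5058 reruns stayed the same and 265 moved in size, and the cause was not tested. With array weights 3 members passed between genotypes at E18.5 in place of 0, beside 876 of all 14292 genes. At E18.5 against E14.5, 6 and 4 members passed in Htr3a-KO and control cells in place of 2 (4795 and 3166 of all genes). At P2 against E18.5 they were 3 and 1 in place of 0 (5788 and 3358 genes). At P2 against E14.5 they were 8 and 5 in place of 4 and 3 (6875 and 5895 genes). Averaging the probe sets of each gene, 1 and 1 members passed at P2 against E18.5 in Htr3a-KO and control cells (4284 and 3081 genes). At P2 against E14.5, 7 and 7 did (6016 and 5840 genes). A trended prior variance gave 1 and 2 at P2 against E18.5 (4096 and 2838 genes). In control cells at P2 against E14.5 it gave 6 (5599 genes), and median centring gave 7 (5811 genes). With only the arrays compared, 1 member passed at P2 against E18.5 in Htr3a-KO cells (3709 genes). Testing all 26104 single-gene probe sets, 91 of them of members, was an alternative chosen after seeing the data. It called 4 member probe sets at E18.5 against E14.5 in Htr3a-KO cells, beside 3778 of all. At P2 against E18.5 it called 4 and 3 in Htr3a-KO and control cells (6471 and 4683 of all). At P2 against E14.5 it called 11 and 8 (9710 and 9324 of all), as more probe sets were counted.

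Leaving out 1 array gave 1 to 2 members at E18.5 against E14.5 in Htr3a-KO cells, 0 to 1 at P2 against E18.5 in Htr3a-KO cells (1 without the third array at E14.5 or the first at E18.5), 1 to 5 at P2 against E14.5 in Htr3a-KO cells and 2 to 6 in control cells (6 without the second array at P2). The members' median at P2 against E14.5 in Htr3a-KO cells was -0.16 to -0.02. With the replicate number as a block, 4 and 3 members passed at P2 against E14.5 in Htr3a-KO and control cells and 0 between genotypes, and no count of members changed. Between arrays of the same number in 2 groups, deviations from the group means correlated at -0.542 to 0.376. They were not set against arrays of different numbers, so they cannot show whether a number marks a shared litter or day. The arrays were treated as unpaired. The 3 arrays in a group limit the precision, and 31 of the 42 members lie above a mean signal of 12.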
